A study of Mus musculus with 8 samples.

Results

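The interferon regulatory factors (IRFs) are transcription factors that bind DNA through a shared amino-terminal domain at repeats of the letters GAAA. The 8 genes described here are Irf1, Irf2, Irf3, Irf4, Irf5, Irf7, Irf8 and Irf9. They were chosen by name, with every probe set annotated to them, which gave 14 of the 45101 probe sets on the array and 8 of 18193 gene symbols. The member genes lie on mouse chromosomes 11 (Irf1), 8 (Irf2 and Irf8), 7 (Irf3 and Irf7), 13 (Irf4), 6 (Irf5) and 14 (Irf9).

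IRFs are best known from the interferon response. Irf3 and Irf7 are activated by kinases downstream of nucleic acid sensors and switch on interferon genes, Irf5 acts below Toll-like receptors, and Irf9 binds DNA as part of a complex that interferon receptors switch on. Irf1 and Irf2 bind the same sites, the former mostly as an activator and the latter largely as its antagonist. Irf4 and Irf8 are the lymphoid and myeloid pair of the family, which bind most sites with a partner such as Spi1 or Batf, and in helper T cells Irf4 is induced by the T cell receptor and is needed for several effector fates.

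Expression was read on Affymetrix arrays in naive CD4 T cells sorted from spleens of mice labelled C57BL/6J, in 8 groups of 1 array each. The genotypes were wild type (WT), Smad2del/del, a conditional deletion in T cells (Smad2KO), Smad3-/- (Smad3KO), and Smad2del/del with Smad3+/- (Smad2KO_Smad3het). The last stood in for cells without either Smad. Each genotype was cultured for 24 h without and with 2 ng/ml TGF-b, the cytokine whose receptor activates Smad2 and Smad3. All 8 cultures also held plate-bound antibody to CD3e and soluble antibody to CD28, 1 ug/ml each, IL-2 at 10 ng/ml, and neutralizing antibodies to IFN-g and IL-4, 10 ug/ml each, so every level below is that of an activated T cell in a culture where 1 interferon was blocked. The labels do not name the Cre driver, nor do they say whether cultures came from separate or pooled animals. With 1 array per group, no spread between cultures of the same group was measured. The p-values rest on how far the TGF-b ratios of these genotypes differed, which takes in any true difference between genotypes. They also rest on other genes, since limma, which gave them, draws each gene's variance toward that of genes of like signal. Signals are probe set intensities scaled so that all arrays have the same trimmed mean, 216. A floor was set at 27.7, the median signal of the WT, Smad2KO and Smad3KO arrays, and lower signals have no order. Pairs of signals are given with the culture without TGF-b first and the culture with it second.

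The 2 Smad2KO_Smad3het arrays stood apart. Their median scaled signals were 88.0 and 90.9, against 26.2 to 30.4 on the other 6. The tests therefore used the 6 WT, Smad2KO and Smad3KO arrays, and values of the fourth genotype are given beside them. The brightest Smad2 probe set read 910 and 878 (WT) and 983 and 891 (Smad2KO), and the brightest Smad3 probe set 127 and 467 (WT) and 523 and 622 (Smad3KO). Neither was lower in its knockout. A dimmer Smad3 probe set read 21.3 and 88.0 (WT) and 36.8 and 41.5 (Smad3KO), so it was lower there with TGF-b only. The remaining Smad2 and Smad3 probe sets were not lower in the knockouts. The sources used here do not place these probes against the deleted exons, so they do not check the labels. All 9 CD4 T cell markers read, Cd3e and Cd4 among them, were at 2 times the floor or more on every array. Their summed signals were 26864 to 29004 on the 6 arrays and 21606 and 22480 on the Smad2KO_Smad3het pair. B cell markers (7 read) summed to 72.6 to 98.5 on the 6 arrays and to 564 and 1056 on that pair. The sums were 133 to 257 against 2727 and 2331 for 10 myeloid markers, and 92.6 to 119 against 456 and 1271 for 7 dendritic cell markers. They were 58.1 to 137 against 1049 and 1347 for 2 CD8 markers, and 3.60 to 33.5 against 93.5 and 374 for 3 NK cell markers. Signals under the floor were summed as read. The sums were not adjusted for the higher median signal of the Smad2KO_Smad3het pair, and its part in the higher sums was not tested.

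**Figure D1:**
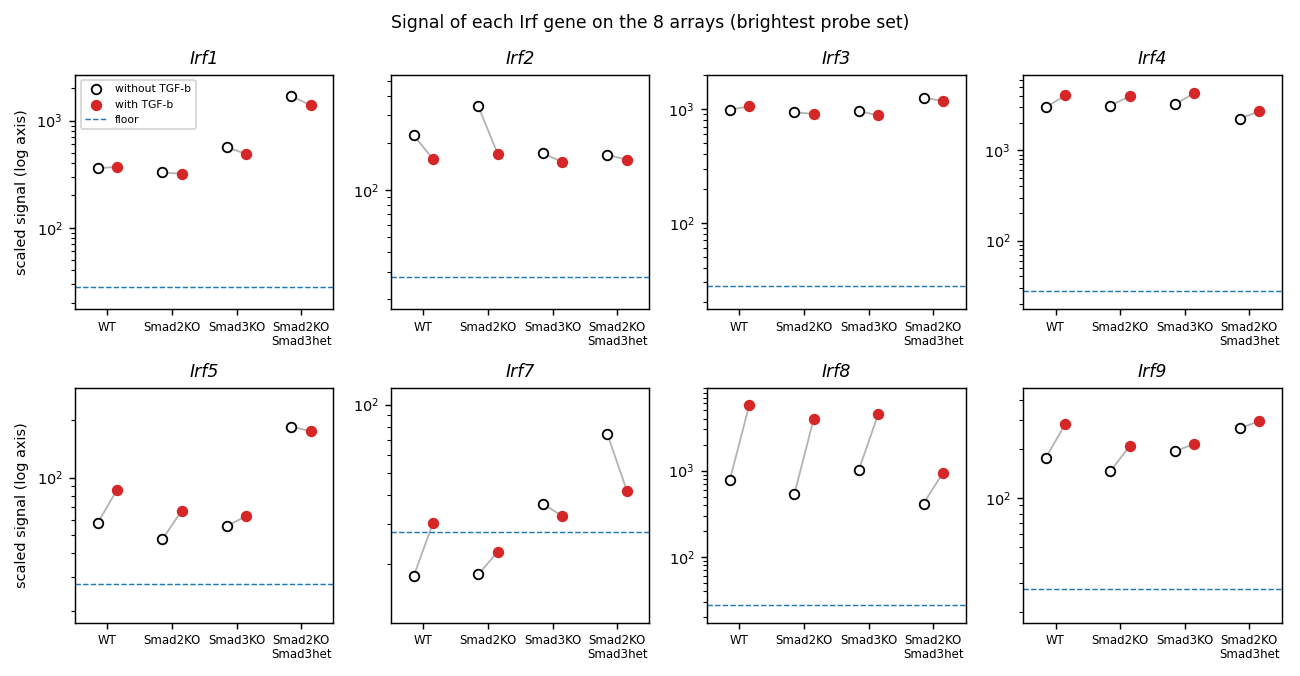
Scaled signal (log axis) of the brightest probe set of each of the 8 Irf genes on each of the 8 arrays, open circles without and red circles with TGF-b, joined within a genotype, with the floor of 27.7 as a dashed line. Irf8 was higher with TGF-b in all 4 genotypes, Irf4 was higher by a smaller amount, and Irf7 lay at or near the floor in WT, Smad2KO and Smad3KO.

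The first comparison asked which IRFs respond to TGF-b. Irf8 rose 6.25-fold on average over WT, Smad2KO and Smad3KO, Irf4 rose 1.32-fold, and Irf2 fell 1.48-fold, although the last call was lost in most other ways of processing the data. Of the 7 members bright enough to be tested, 2 rose and 1 fell past a limma adjusted p of 0.05. Over all 9453 genes tested, 7.16% rose and 5.61% fell. The median mean response of the 7 was 0.40 on the log2 scale, against -0.02 over all genes tested. On 5 of the 7, the 3 signals with TGF-b did not overlap the 3 without it (4 higher, 1 lower), where 13.3% of all genes were higher without overlap and 14.2% lower. Irf2, the lower one, was parted by 171.24 without against 170.22 with TGF-b. The gap was also small for Irf5 (57.8 without, 62.8 with) and Irf9 (194 without, 208 with). Bulk arrays cannot tell more RNA per cell from more cells of a kind that express a gene.

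Irf8 was the member that moved most. Its brightest probe set read 776 and 5693 (WT), 534 and 4001 (Smad2KO), 1027 and 4557 (Smad3KO), and 415 and 942 (Smad2KO_Smad3het). The 3 higher signals with TGF-b all lay above every signal without it, whereas the Smad2KO_Smad3het culture with TGF-b (942) read below the Smad3KO culture without it. The ratios were 7.33-fold in WT, 7.50-fold in Smad2KO, 4.44-fold in Smad3KO and 2.27-fold in Smad2KO_Smad3het. Its other probe set read 378 and 3415 (WT), 313 and 1740.3 (Smad2KO), 549 and 2733 (Smad3KO) and 297 and 727 (Smad2KO_Smad3het), ratios of 9.02-, 5.55-, 4.98- and 2.45-fold. Both probe sets thus had their smallest ratio in Smad2KO_Smad3het, and they differed in whether WT or Smad2KO had the largest. Signals of the Smad2KO_Smad3het pair spanned a narrower range. The level exceeded by 2% of probe sets lay 4.85 and 4.79 in log2 above the median, against 6.81 to 7.07 on the others. With quantile normalization the log2 ratio of the brightest Irf8 probe set in that pair was 1.46 instead of 1.18. The part of the narrower range in the smaller ratio was not tested. The mean response was 2.64 in log2 (SE 0.155, adjusted p = 0.000195 with limma), the 22nd largest of 9453, and the other probe set gave 2.65 (SE 0.161) in a fit of every probe set. When the Smad2KO_Smad3het pair was added, the mean response became 2.28 and did not pass (SE 0.312, adjusted p = 0.0785). Over the 13 alternatives it ran from 2.28 to 2.89 and passed in 12.

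Irf8 is also a marker of B cells, macrophages and dendritic cells, so the markers of those cells are given beside it. On the 6 arrays, 6 or 7 of the 7 B cell markers and 6 or 7 of the 7 dendritic cell markers were under the floor, and none was at 2 times the floor. Of the 10 myeloid markers 6 to 8 were under the floor and at most 1 was at 2 times it. The summed B cell signals were 72.6 to 88.1 on the 3 arrays without TGF-b and 89.3 to 98.5 on the 3 with it. The dendritic cell sums were 92.6 to 104 without and 97.1 to 119 with TGF-b. The myeloid sums were 192 to 257 without and 133 to 176 with TGF-b. Most markers of each sum lay under the floor, where signals have no order, so no rise or fall is read from these sums.

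Irf4, the factor induced by the T cell receptor, was bright in every culture and a little brighter with TGF-b. It read 3003 and 4064 (WT), 3136 and 3993 (Smad2KO), 3236 and 4338 (Smad3KO) and 2246 and 2703 (Smad2KO_Smad3het). The 3 signals with TGF-b lay in a narrow band above the 3 without it. Ratios were 1.35-fold in WT, 1.27-fold in Smad2KO, 1.34-fold in Smad3KO and 1.20-fold in Smad2KO_Smad3het, and the mean response over the first 3 was 0.40 (SE 0.0652, limma adjusted p = 0.00195). A dimmer Irf4 probe set rose too, by 0.64 (SE 0.126, adjusted p = 0.0120 among all probe sets). It read 499 and 840 (WT), 547 and 1041 (Smad2KO), 702 and 827 (Smad3KO) and 531 and 545 (Smad2KO_Smad3het), so its log2 ratios of 0.75, 0.93, 0.24 and 0.04 differed between genotypes more than those of the brighter one. With all 8 arrays the Irf4 call was lost (0.37, adjusted p = 0.0733), as it was without limma's trend and robust settings (adjusted p = 0.0722).

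Irf2, the antagonist of Irf1, was lower with TGF-b in each genotype by unequal amounts. It read 223 and 158 (WT), 342 and 170 (Smad2KO), 171 and 151 (Smad3KO) and 168 and 156 (Smad2KO_Smad3het). The signals with TGF-b were alike in all 4 genotypes, and the Smad2KO culture without it stood highest. Ratios were 1.42-fold in WT, 2.01-fold in Smad2KO, 1.13-fold in Smad3KO and 1.08-fold in Smad2KO_Smad3het, all lower with TGF-b. The mean response of -0.56 (SE 0.162, limma adjusted p = 0.0427) passed in 4 of 13 alternatives, with adjusted p between 0.00273 and 0.382. Without the Smad2KO pair of arrays it was -0.34 (adjusted p = 0.382), and without the WT pair -0.59 (adjusted p = 0.204).

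The 250 bases before the annotated start site of these 3 members are printed because they are the members called for the TGF-b response. They come from RefSeq on build GRCm38.p6, each on the plus strand, 5′ to 3′. Capitals mark matches on either strand to any of 3 motifs: GAAA followed after any 2 bases by another GAAA, the core of the interferon-stimulated response element that IRFs bind, TTCNNNGAA, the gamma-activated site that Stat factors bind, and CAGACA, a Smad-binding element.
Irf8, chr8:120736108-120736357: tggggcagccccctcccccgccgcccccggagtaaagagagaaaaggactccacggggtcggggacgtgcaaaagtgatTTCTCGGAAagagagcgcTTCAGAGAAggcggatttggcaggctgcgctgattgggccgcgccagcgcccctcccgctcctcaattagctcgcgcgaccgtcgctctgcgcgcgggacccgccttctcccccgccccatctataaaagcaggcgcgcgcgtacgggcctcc
Irf4, chr13:30748983-30749232: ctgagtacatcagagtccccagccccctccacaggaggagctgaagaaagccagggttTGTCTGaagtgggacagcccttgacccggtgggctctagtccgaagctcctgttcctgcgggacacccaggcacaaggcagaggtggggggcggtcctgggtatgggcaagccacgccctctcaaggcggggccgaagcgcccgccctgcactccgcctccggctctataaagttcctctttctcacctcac
Irf2, chr8:46739495-46739744: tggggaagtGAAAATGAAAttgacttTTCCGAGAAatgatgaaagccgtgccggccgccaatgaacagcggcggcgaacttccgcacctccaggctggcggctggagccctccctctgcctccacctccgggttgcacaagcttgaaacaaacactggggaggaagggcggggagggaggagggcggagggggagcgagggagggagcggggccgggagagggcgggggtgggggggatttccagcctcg

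The Irf8 window held 2 gamma-activated sites, TTCTCGGAA beginning 171 bases and TTCAGAGAA beginning 153 bases before the start site, and no match to the other motifs. The Irf4 window held 1 Smad-binding element, on the minus strand, 192 to 187 bases before the start. The Irf2 window held 1 response element core, GAAAATGAAA, and 1 gamma-activated site, TTCCGAGAA, which did not overlap. Of 32851 promoter windows of the same length, 2.98% held the response element core, 7.02% the gamma-activated site and 17.1% the Smad-binding element. RefSeq lists 11 windows for the 8 members, since Irf1, Irf8 and Irf9 have a second start site, and the later Irf8 window held none of the motifs. Among the other members, the earlier Irf1 window held 1 gamma-activated site (TTCCCCGAA), the Irf5 window and the earlier Irf9 window 1 Smad-binding element each, and the Irf3 and Irf7 windows no match. A match is a run of letters, not a shown site of binding.

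Irf9, the DNA-binding part of the interferon-activated complex, was higher with TGF-b on every pair without passing the test. It read 176 and 283 (WT), 146 and 208 (Smad2KO), 194 and 214 (Smad3KO) and 267 and 295 (Smad2KO_Smad3het). The 3 signals with TGF-b lay above the 3 without it on the tested arrays, with log2 ratios of 0.69, 0.51 and 0.14. The mean response was 0.45 (SE 0.142, limma adjusted p = 0.0601). Without the Smad3KO pair, where its ratio was smallest, it was 0.60 and passed (adjusted p = 0.0114), the only 1 of 13 alternatives in which it did.

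Irf5, a factor of myeloid and B cells, was dim. Its brighter probe set read 57.8 and 86.4 (WT), 47.3 and 67.0 (Smad2KO), 55.7 and 62.8 (Smad3KO) and 185 and 175 (Smad2KO_Smad3het). The mean response was 0.42 (SE 0.231, limma adjusted p = 0.264). The other probe set went from 57.6 to 42.6 in WT, from 48.6 to 51.6 in Smad2KO and from 63.3 to 27.2, under the floor, in Smad3KO, so the 2 probe sets did not move alike. Their mean gave -0.05. The higher Irf5 level in Smad2KO_Smad3het came with a higher median signal of those arrays (88.0 and 90.9, against 26.2 to 30.4 on the others). It also came with their higher myeloid and B cell marker sums. The part of either in it was not tested.

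Irf1, Irf3 and Irf7 gave no call for TGF-b. Irf1, an activator that interferon-gamma is known to induce, read 361 and 369 (WT), 328 and 319 (Smad2KO), 562 and 490 (Smad3KO) and 1687 and 1396 (Smad2KO_Smad3het). Its mean response was -0.07 (SE 0.0997, limma adjusted p = 0.684), and its signals differed more by genotype than by treatment. Its level was highest on the Smad2KO_Smad3het pair, where the median array signal and the marker sums of other cells were also higher. Their part in it was not tested. Irf3, the broadly expressed factor below nucleic acid sensors, read 887 to 1059 on the 6 arrays and 1265 and 1183 on the Smad2KO_Smad3het pair, with a mean response of -0.02 (SE 0.0813, adjusted p = 0.885). Of its 3 dimmer probe sets, 1 had log2 ratios of 0.32, 0.22 and 0.34 across the tested genotypes (mean 0.29, adjusted p = 0.296), 1 had ratios of -0.22, -0.07 and -0.16, and 1 was at or near the floor and not tested. The brightest Irf3 probe set is of a design that can also match related transcripts, as its suffix x_at marks. Irf7, the factor that interferon itself induces, read 17.8 and 30.4 (WT), 18.03 and 22.7 (Smad2KO), 36.8 and 32.5 (Smad3KO) and 74.0 and 42.0 (Smad2KO_Smad3het). On the first 6 arrays 3 of its signals lay under the floor and none reached 2 times it, so Irf7 was not tested.

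**Figure D2:**
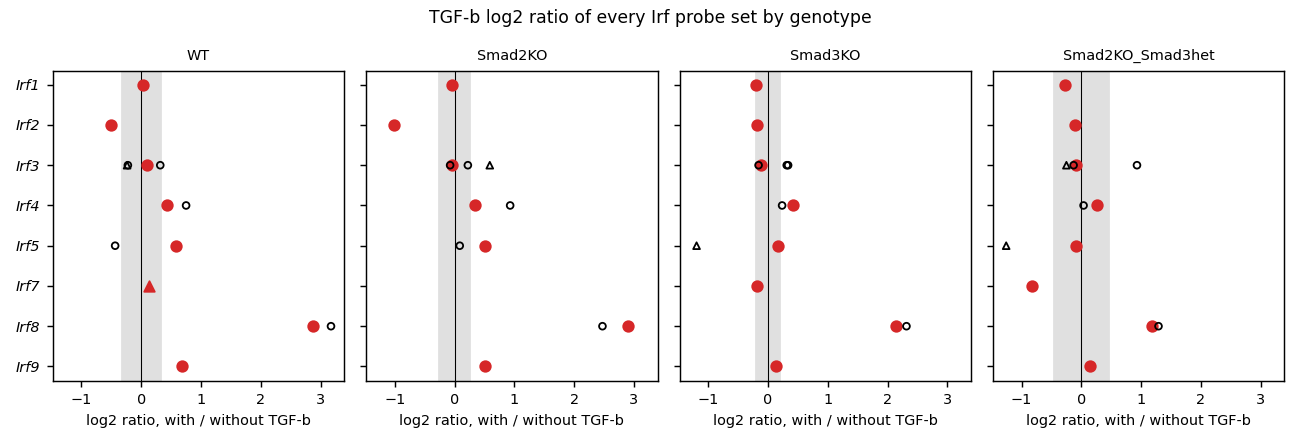
TGF-b log2 ratio (with over without) of every Irf probe set in the 4 genotypes, filled red for the brightest probe set of a gene and open for the others, triangles where 1 of the 2 signals was under the floor and was set to it. Pairs with both signals under the floor are not drawn, and the grey band is the robust SD of ratios over bright genes of that pair (0.329, 0.261, 0.197 and 0.465). Only Irf8 lay beyond 2-fold (log2 of 1) upward in all 4 panels.

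Within each genotype a ratio rests on 2 arrays and has no replicate check. In WT, 1 of 7 bright members, Irf8, was at 2-fold higher and 0 were at 2-fold lower, against 4.53% and 2.89% of 9208 bright genes. In Smad2KO, Irf8 was at 2-fold higher and Irf2 at 2-fold lower, against 2.94% and 1.76% of 9057 genes. In Smad3KO, Irf8 was at 2-fold higher and 0 were lower, against 1.90% and 0.839% of 8937 genes. In Smad2KO_Smad3het, Irf8 was at 2-fold higher and 0 of 8 were lower, against 12.4% and 10.9% of 14306 genes. Irf7 stood at -0.82 there, with signals of 74.0 and 42.0 under the medians of those arrays (88.0 and 90.9). The Irf7 ratio was 0 with quantile normalization and -0.42 with the floor at 2 times the median. The median ratio of the bright members was 0.44 in WT, 0.35 in Smad2KO, 0.14 in Smad3KO and -0.09 in Smad2KO_Smad3het, on the log2 scale. The robust SD of ratios over all bright genes was 0.329, 0.261, 0.197 and 0.465 in the same order, so the pairs differed in spread as well.

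The next comparison asked whether the TGF-b response differs when Smad3 is deleted. The Irf8 response was smaller in Smad3KO than in WT and Smad2KO by a log2 difference of 0.74 (SE 0.149, adjusted p = 0.0292 with limma), which made it the 1 member called of 7. Over 9450 genes, 0.243% were called lower and 0.138% higher. The call rests on 1 residual degree of freedom before moderation, from the WT and Smad2KO ratios of this probe set (2.87 and 2.91). limma also draws the variance from other genes of like signal, so the SE is not the spread of these ratios alone. It was lost in 7 of 9 alternatives, with adjusted p between 0.000522 and 0.709, while the difference itself stayed between -0.76 and -0.62. The other Irf8 probe set had a difference of -0.51 (SE 0.282, adjusted p = 0.888 among all probe sets). Irf9 had a difference of -0.46 (adjusted p = 0.734) and Irf2 of 0.57 (adjusted p = 0.631), and neither passed. For Irf4 it was 0.03 (SE 0.147, adjusted p = 0.982), and the dimmer Irf4 probe set had -0.60 (SE 0.191, adjusted p = 0.474 among all probe sets).

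**Figure D3:**
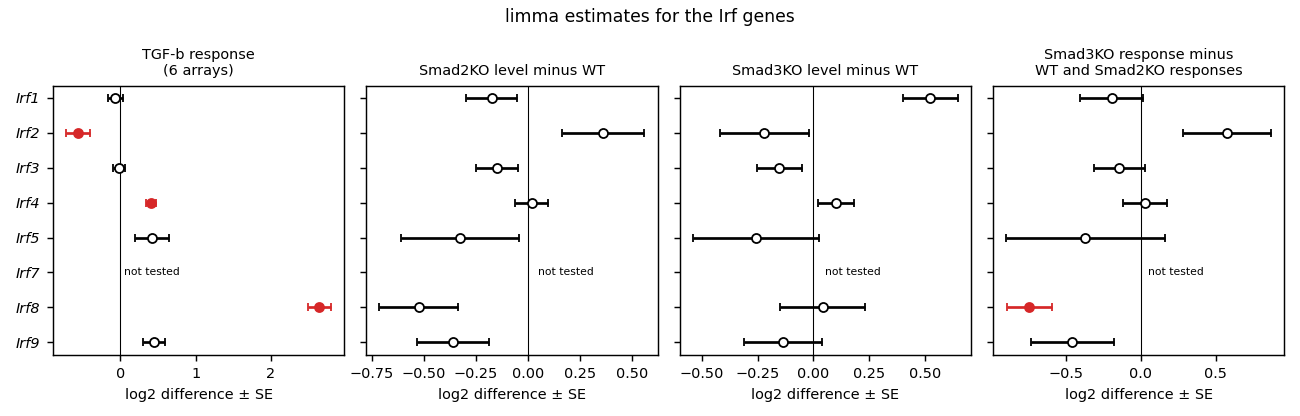
limma estimates on the log2 scale with their SE for the Irf genes in the 4 comparisons on the 6 arrays, red where the adjusted p was under 0.05. The calls are Irf8, Irf4 and Irf2 for the TGF-b response and Irf8 for the Smad3KO response against the WT and Smad2KO responses, and Irf7 was not tested.

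Levels were then compared between genotypes, with treatment as a block. No member passed in either comparison. limma called 0 of 7 members between Smad2KO and WT (1 at an unadjusted p under 0.05), where 1.00% of 9453 genes were called, and 0 of 7 between Smad3KO and WT (1 at an unadjusted p under 0.05), where 0.465% were. Irf1 was 1.44-fold higher in Smad3KO than in WT (log2 0.52, SE 0.122, limma adjusted p = 0.102), and both Smad3KO signals lay above the other 4. Irf8 was 1.44-fold lower in Smad2KO than in WT (log2 -0.52, SE 0.190, adjusted p = 0.454), lower both without and with TGF-b. Fitted on the WT and Smad2KO arrays alone, that difference of -0.52 passed (adjusted p = 0.00121), with 1 residual degree of freedom. Irf9 was at -0.36 (adjusted p = 0.565) and Irf2 at 0.36 (adjusted p = 0.636) in Smad2KO against WT. The remaining differences lay between -0.33 and 0.10 in both comparisons.

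Genes whose signals followed those of Irf8 most closely over the 6 arrays were Skil, a repressor of Smad-driven transcription (Pearson r = 0.997), Inpp5b, an inositol phosphatase (0.993), and Lta, the lymphotoxin alpha cytokine (0.993), out of 1570 genes spanning at least 2-fold. Skil read 478 and 1840.2 (WT), 382 and 1637 (Smad2KO), 563 and 1566 (Smad3KO) and 246 and 818 (Smad2KO_Smad3het). In all, 77 of these genes had r of 0.95 or more with Irf8, and 6 points in 2 treatment groups give high coefficients easily. For Irf2 the closest were Zfp296 (0.970), Pelo (0.968) and Shh (0.951), and the last read 22.6 to 57.6 on these arrays and 12687 and 12437 on the Smad2KO_Smad3het pair. Irf2 and Irf8 were the only members to span 2-fold over the 6 arrays.

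The wider pathway was read from 6 gene lists, with the same fit, and signals under the floor were set to it, so a fitted mean that includes such a signal is not a measured size. Of 13 tested interferon receptor and Jak-Stat genes, 3 rose and 2 fell with TGF-b, where 7.16% of all genes rose and 5.61% fell, and their median response was 0.13 against -0.02 over all genes. The rises were Socs3 by 1.63 (SE 0.227) and Socs1 by 1.46 (SE 0.232), both feedback inhibitors of Jak kinases, and the interferon-gamma receptor chain Ifngr2 by 0.83. The falls were Jak2, the kinase of that receptor, by 0.67 (SE 0.102) and the phosphatase gene Ptpn6 by 0.27. On the untested Smad2KO_Smad3het pair the log2 ratios were 0.39 for Socs3, -0.80 for Ifngr2, -0.23 for Jak2 and -0.21 for Ptpn6. Ifngr2 thus went the other way there. Socs1 read 75.5 and 334 (WT), 84.3 and 228 (Smad2KO), 105 and 182 (Smad3KO) and 38.2 and 252 (Smad2KO_Smad3het). Usp18, a brake on the type I interferon receptor, was 2.00-fold higher in WT and had a mean response of 0.46 (limma adjusted p = 0.273).

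Of 12 tested sensors and kinases that act upstream of Irf3, Irf5 and Irf7, 2 rose and 1 fell, with a median of -0.00051. Of all genes 7.16% rose and 5.61% fell, and 1 fall of 12 is near the latter share. Ifih1, a sensor of viral RNA, fell by 1.70 (SE 0.196, limma adjusted p = 0.000627). It read 353 and 71.0 (WT), 500 and 163 (Smad2KO), 322 and 143 (Smad3KO) and 221 and 124 (Smad2KO_Smad3het), lower with TGF-b on each pair. Traf6, an adaptor ligase below Toll-like receptors, rose by 1.14 and Ikbke, a kinase of Irf3 and Irf7, by 0.37. The log2 ratios of Traf6 and Ikbke in Smad2KO_Smad3het were 0.75 and -0.10. Zbp1, another nucleic acid sensor, went from 74.3 to under the floor in WT and had a fitted mean response of -0.78 (adjusted p = 0.0936).

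Interferon-stimulated genes are the usual targets of IRFs. Of 27 tested, 5 rose and 2 fell, with a median of 0.07, against 7.16% of all genes that rose and 5.61% that fell, so the falls were near the share of all genes. The rises were Ifit3 (fitted mean 1.03, with its WT signal without TGF-b under the floor), Ifi35 by 0.84, Igtp by 0.78, Samhd1 by 0.66 and Parp9 by 0.59. The falls were Isg20 by 1.23 and Gbp2 by 0.74. In Smad2KO_Smad3het the log2 ratios were -0.35 for Ifit3, 0.37 for Ifi35, 1.04 for Igtp, 0.28 for Samhd1 and -0.29 for Parp9. They were 0.08 for Isg20 and -0.34 for Gbp2. Oas3 and Parp12 were 2-fold lower in WT, each to a signal under the floor, and did not pass. In Smad2KO against WT, 4 of the 27 differed: Gbp2 by 1.20 and Bst2 by 0.67 upward, and Ifi27l2a at -1.10 and Trim30a at -0.86 downward, against the 1.00% of all genes given above. Of 12 tested Irf1 targets, 3 fell, where 5.61% of all genes did, and limma called 0 as higher (2 at an unadjusted p under 0.05), with a median of 0.03. The falls were Casp1, a caspase of inflammation, Il12rb1, which encodes part of the IL-12 receptor, by 0.74, and Gbp2, which is in both lists. Casp1 had a fitted mean of -1.67, with all 3 tested signals with TGF-b under the floor. In Smad2KO_Smad3het the log2 ratios were 0.53 for Casp1 and -0.23 for Il12rb1.

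The partners and regulators of Irf4 in lymphocytes were chosen with Maf and Foxp3 already known to rise in these data, so their count is not independent of earlier results. Of 16 tested, 7 rose and 3 fell, with a median of 0.26, where 7.16% of all genes rose and 5.61% fell. Maf and Foxp3 were under the floor on all 3 tested arrays without TGF-b, with fitted means of 5.54 and 2.80. With TGF-b, Maf read 2246 (WT), 1697 (Smad2KO) and 566 (Smad3KO), and Foxp3 read 342, 245 and 85.3 in the same order. The other genes to rise were Nfatc2, a calcium-driven partner of Irf4, by 0.84, Jun by 0.66, Ets1 by 0.50, Def6, which binds Irf4 protein, by 0.47 and Stat3 by 0.39. Rel, an activator of the Irf4 gene in lymphocytes, fell by 0.71 (SE 0.0921). Batf, the partner with which Irf4 binds composite sites, fell by 0.33 and Ikzf1 by 0.32. In Smad2KO_Smad3het the log2 ratios were 2.27 for Maf, 1.26 for Foxp3, 0.36 for Nfatc2, 0.12 for Ets1, -0.23 for Def6 and -0.45 for Stat3. Jun was at -1.18 there, with its signal with TGF-b under the floor. Rel was at 0.27 and Ikzf1 at -0.05 on that pair. Batf read 574 and 493 (WT), 663 and 512 (Smad2KO), 685 and 517 (Smad3KO) and 652 and 474 (Smad2KO_Smad3het), and was thus lower with TGF-b on each pair on which Irf4 was higher. Jund was lower with TGF-b in WT and Smad2KO but not in Smad3KO, with log2 ratios of -0.70, -1.05 and 0.14. The Smad3KO response differed from the other 2 by 1.02. The size of such a difference was not measured for Maf, whose ratios in these 3 genotypes are all bounds. Of 6 tested IRF-binding proteins and ligases limma called 0 (1 at an unadjusted p under 0.05), with a median of -0.12.

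**Figure D4:**
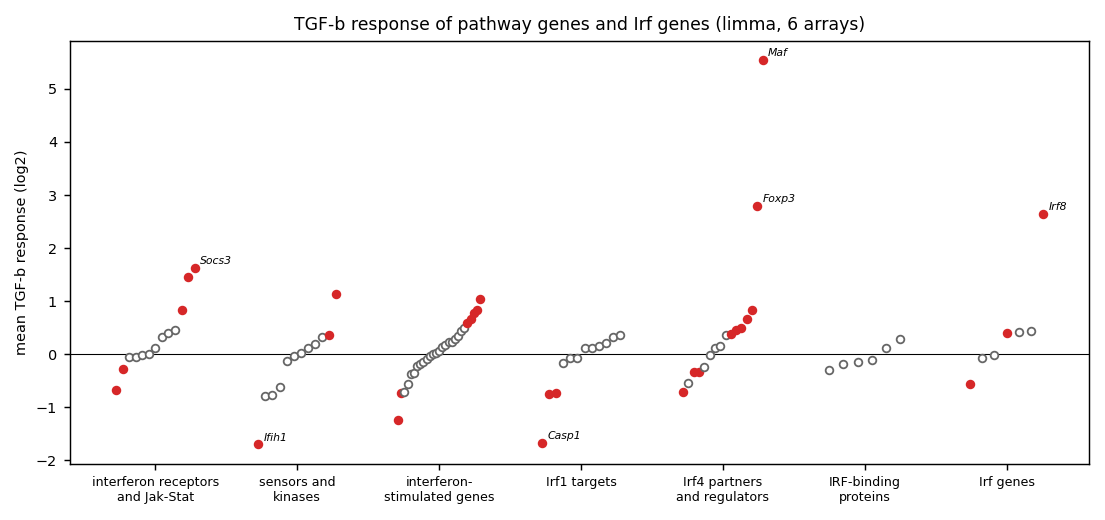
Mean TGF-b response (log2, limma on the 6 arrays) of each tested gene of the 6 pathway lists and of the 7 tested Irf genes, ordered by value within a list, red where the adjusted p was under 0.05. Names stand beside genes beyond 1.5 in either direction, and Irf8 at 2.64 was exceeded among these genes by Maf at 5.54 and Foxp3 at 2.80.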

How the data were processed

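The deposited values were probe set intensities on a linear scale, 1 array per sample, and the submitters' processing notes name GCOS 1.4. Its background and scale settings are unstated there. Deposited array medians ran from 27.3 to 44.4. Each array was scaled to 1 common mean after 2% was trimmed at each end, floored at 27.7 and put on the log2 scale. Each gene's value came from the probe set of highest mean over the 6 tested arrays, and the gene was tested if 1 signal reached 55.4, which is 2 times the floor. That left 9453 genes, 7 of the 8 members, and 12 of their 14 probe sets. Names came from the platform annotation (34945 probe sets with 1 symbol, 932 with several, 9160 unnamed, 64 controls), and all 8 members matched RefSeq by identifier.

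limma 3.58.1 in R 4.3.3 was fitted with genotype and treatment terms (2 residual degrees of freedom, 1 for the difference in responses), robust and trend options, and Benjamini-Hochberg adjustment across all genes. The fit was tested on simulated data. Figures used matplotlib 3.10.9. The number of arrays limits the precision. Every member was named, with list genes called for TGF-b or at 2-fold in WT, and for members spanning 2-fold the 3 genes of highest correlation. The members, lists and settings were chosen with earlier results of these data known. Alternatives changed the arrays, normalization, floor, filter, probe set choice, variance model and genotypes.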

Additional observations from a re-analysis of the deposited data

Results flagged for a closer look

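The Irf8 response to TGF-b in Smad3KO minus that in WT and Smad2KO was -0.74 in log2, by a test of the difference itself (limma adjusted p = 0.0292). It rests on 1 Smad3KO pair of arrays and 1 residual degree of freedom, and was lost in 7 of 9 alternatives, with adjusted p from 0.000522 to 0.709. The other Irf8 probe set gave -0.51 (adjusted p = 0.888). The ratios were 2.87 (WT), 2.91 (Smad2KO) and 2.15 (Smad3KO).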

How the results depend on the processing

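No paired analysis by replicate number was possible because each group had 1 array. The genotype served as the block. Over all genes, the TGF-b response had 1207 calls, the Smad2KO level 95, the Smad3KO level 44 and the Smad3KO response difference 36, and the members had 3, 0, 0 and 1. With all 8 arrays the gene counts were 19, 2, 1 and 3, and those of members 0, 0, 0 and 0. With no filter they were 459, 13, 4 and 0, with averaged probe sets 567, 19, 6 and 0, and without trend and robust settings 393, 4, 3 and 0, where 1 member was called for TGF-b. Without the genotype block the response had 599. A floor at the 25th percentile gave 147, 125 and 108 for the last 3 comparisons, and a floor at 2 times the median 15 and 3 for the last 2. The response difference had 121 calls with quantile normalization, 12 with centred arrays and 14 with every probe set tested. It called 0 members under centring, the higher floor, no filter, the mean of probe sets, every probe set, 8 arrays and no trend. Leaving out 1 genotype pair gave 402 to 1804 calls for the response, with 2 to 4 members, and, without the Smad3KO pair, 212 for the Smad2KO level, with 1 member, Irf8. In these fits that leave out 1 pair the Irf3 response ran from -0.080 to 0.025.

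Genes at 2-fold numbered 683 in WT, 425 in Smad2KO, 245 in Smad3KO and 3343 in Smad2KO_Smad3het. A floor at the 25th percentile made them 3310, 2443 and 2250 in the first 3, a floor at 2 times the median 446 in WT, 152 in Smad3KO and 1961 in Smad2KO_Smad3het, and quantile normalization 264 in Smad2KO and 143 in Smad3KO. With the mean of probe sets, Irf3 turned to 0.085 and Irf5 to -0.048 for the response, and Irf3 to 0.013 and Irf4 to -0.29 for the response difference. Without the Smad3KO pair Irf3 was at 0.025. None of these 5 values passed. The Irf8 response kept its sign under all 13 alternatives run. Irf5 was not tested with the higher floor.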
